A study of Mus musculus with 3 samples.

Results

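The mitochondrial ribosomal protein (MRP) genes are named for the protein subunits of the mitoribosome. They were examined here for binding of ESRRA, the estrogen-related receptor alpha, in the villus cells of the mouse duodenum. They were taken as the protein-coding genes whose symbol is Mrpl, given mostly to proteins of the large subunit, or Mrps, given mostly to those of the small subunit, followed by digits and at most 1 letter. This gave 76 of the 22367 protein-coding genes in GENCODE M1, the annotation of the mm9 genome, of which 47 have an Mrpl and 29 an Mrps symbol. These are classes of symbols, since a few proteins named as Mrps, such as those of Mrps18a and Mrps30, are known to sit in the large subunit. Whether each protein is part of the mitoribosome was not checked. An MRP gene was linked to a peak where the midpoint of the peak lay within 30 kb of any of its transcript start sites, the distance used in the study to define target genes. The study also required lower expression of a target gene in Esrra mutant mice. That was not examined here, so a linked gene is not necessarily a target gene of the study. The choice of MRP genes used names and annotation, and no measured value. Each peak was then asked to be at the promoter of the MRP gene itself, within 1 kb of a start site, or at that of a neighbouring gene.

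The series holds 3 libraries from the duodenal epithelium of adult wild-type C57BL/6 mice fed regular chow, 2 of chromatin precipitated with an anti-ESRRA antibody and 1 of input chromatin. Villus cells were taken, separated from crypts on a filter, and how many animals gave each library is not given in the sources used here. The measurement was 1 list of 1639 peaks, all of the same width, called by the authors on both ChIP libraries together, so that no value below has a replicate error. The list carries no height, read depth or p-value per peak, and no RNA level, and hence the labelled cell type was not checked against marker genes and a weak peak counted the same as a strong one.

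The mitoribosome translates the few messages encoded by mitochondrial DNA, which are all core subunits of the respiratory chain and the ATP synthase. All of its proteins are made from nuclear genes in the cytosol and imported. Some MRPs have a counterpart in the bacterial ribosome, and others are found only in mitochondria. ESRRA is a nuclear receptor that binds DNA as a monomer or dimer at an extended half-site, written TCAAGGTCA, with AAGGTCA as its core, and is known for its role at nuclear genes of mitochondrial energy metabolism.

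Peaks lay at the promoter of 5 MRP genes, Mrpl12, Mrpl47, Mrps35, Mrps18b and Mrpl36, and their sequences are shown first. These are the peaks within 1 kb of an MRP start site, and those of Mrpl47 and Mrps18b were at promoters shared with another gene. In the peaks of Mrpl47, Mrps35 and Mrpl12 the core AAGGTCA was present once each. The 29 bases around it are given 5′ to 3′ on the strand that reads AAGGTCA, with the 9 bases that align to TCAAGGTCA in capitals.
Mrpl47: tcggaggtccCCAAGGTCAcctggaaaca
Mrps35: gaaaaacacaGGAAGGTCAcggagcgcac
Mrpl12: tccgcaagcgGGAAGGTCAcacgcggctc

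These sites lay 36, 45 and 215 bp from the midpoint of the peak. The Mrpl47 site was in an intron of the neighbouring gene Ndufb5 (chr3:32636170-32636198, minus strand), the Mrps35 site in an intron of Mrps35 itself (chr6:146991473-146991501, minus strand), and the Mrpl12 site in an untranslated exon of Mrpl12 (chr11:120345974-120346002, minus strand), all in mm9. All 3 held the core exactly, but not the full TCAAGGTCA. The peaks at Mrpl36 and Mrps18b did not hold AAGGTCA on either strand. Their closest 9 bases to TCAAGGTCA, in capitals, matched it at 8 and 7 positions.
Mrpl36: ccctcccctaTCAAGGTTActtggcatca
Mrps18b: ctagggtgggCCAAGGACAcgccccgcaa

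A match at 8 or more of 9 positions was found somewhere in 46.3% of all 1639 peaks and a match at 7 or more in 93.1%, so that these last sequences are given as a description only. The Mrpl36 sequence lay in an intron of Mrpl36 (chr13:73468726-73468754, minus strand) and the Mrps18b sequence in an exon of Ppp1r10 (chr17:36053370-36053398, plus strand).

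Longer stretches of 3 of these peaks are also shown, 200 bases each on the plus strand and outside annotated untranslated exons. In those of Mrpl47 (chr3:32636153-32636352) and Mrps35 (chr6:146991342-146991541) capitals mark the core, which reads TGACCTT on this strand. In that of Mrpl36 (chr13:73468821-73469020) they mark the start codon of Mrpl36, since the midpoint of this peak lay in this coding exon. The stretch of Mrpl36 does not include the closest sequence shown above.
Mrpl47: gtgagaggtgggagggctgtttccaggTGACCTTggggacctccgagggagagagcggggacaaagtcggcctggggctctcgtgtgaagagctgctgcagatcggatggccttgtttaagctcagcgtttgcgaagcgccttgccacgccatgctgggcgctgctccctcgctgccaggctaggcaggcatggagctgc
Mrps35: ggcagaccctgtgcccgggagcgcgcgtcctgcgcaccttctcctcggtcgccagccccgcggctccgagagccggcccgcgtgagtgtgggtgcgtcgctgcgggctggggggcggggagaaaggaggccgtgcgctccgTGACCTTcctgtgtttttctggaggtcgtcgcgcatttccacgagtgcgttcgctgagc
Mrpl36: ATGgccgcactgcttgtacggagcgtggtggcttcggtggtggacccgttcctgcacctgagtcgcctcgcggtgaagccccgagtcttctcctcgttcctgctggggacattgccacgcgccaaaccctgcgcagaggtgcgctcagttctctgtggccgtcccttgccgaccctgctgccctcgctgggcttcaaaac

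Of the 76 MRP genes, 13 had a peak within 30 kb of a start site (17.1%, 95% Wilson interval 10.3 to 27.1%), beside 8.75% of all protein-coding genes. A peak within 1 kb was found for 5 (6.58%, interval 2.84 to 14.5%), beside 2.08% of all protein-coding genes. The intervals cover counting error between genes only, and the list of genes was compared with all genes by these shares alone, with no test. By symbol, 9 of the 47 Mrpl genes were linked to a peak (19.1%) and 3 had it at the promoter, and of the 29 Mrps genes these were 4 (13.8%) and 2. An MRP gene had a median of 2 other protein-coding genes starting within 30 kb (quartiles 1 and 3) where all protein-coding genes had a median of 1 (quartiles 0 and 2). The part of gene density in the shares was not tested.

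The 13 genes were linked to 18 peaks, all of them single-copy sequence, meaning that the median 24-base word of the peak occurred no more than 10 times in the genome. In the whole list 324 of 1639 peaks were multi-copy. Of the 18 peaks, 5 lay at the promoter of the MRP gene, 7 at the promoter of a neighbour only and 6 at no promoter. Neighbours were annotated genes of any type. With start sites of protein-coding genes only, the 7 were 6, without a peak near the microRNA gene Mir1894. Among all 2912 pairs of a protein-coding gene and a peak within 30 kb, 16.7% were within 1 kb, beside these 5 of 18 (27.8%, interval 12.5 to 50.9%). The MRP gene had the nearest start site of any annotated gene for 6 of the 18 peaks (33.3%), beside 38.2% of all pairs. Peaks within 1 kb of any start site made up 12 of the 18 (66.7%, interval 43.7 to 83.7%) beside 37.9% of the 1249 peaks within 30 kb of a protein-coding gene.

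**Figure D1:**
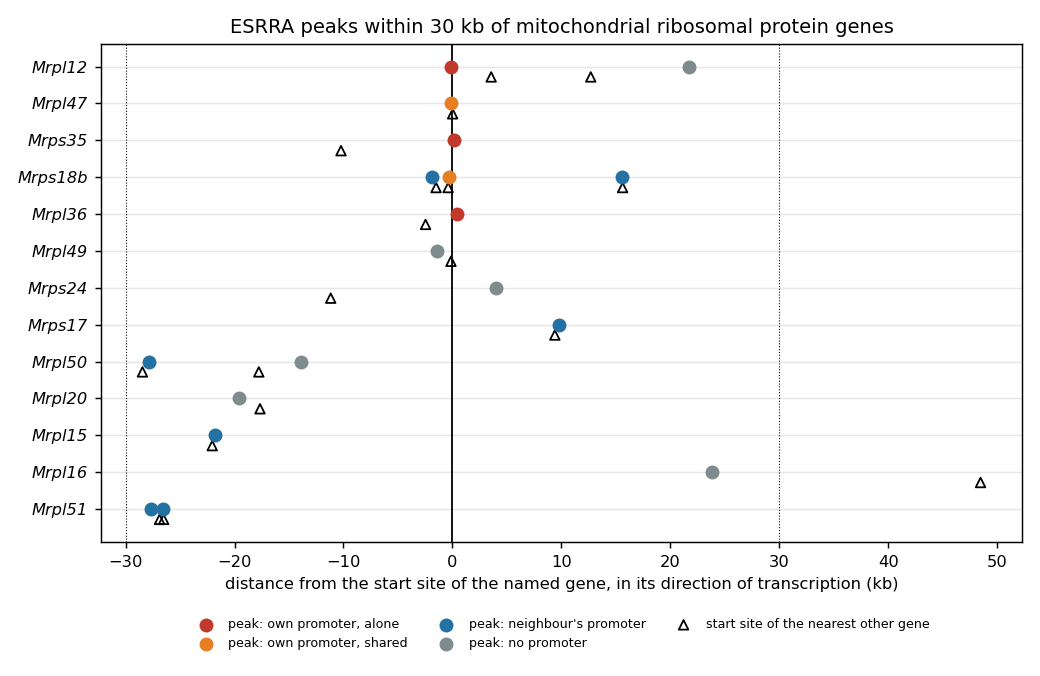
Distance of each of the 18 peaks (filled circles) from the start site of the MRP gene to which it was linked (rows, 13 genes), in kb and in the direction of transcription of that gene, with negative values upstream. Red and orange circles are the 5 peaks at the MRP promoter (alone or shared), blue the 7 at a neighbour's promoter, which lie close to an open triangle, the nearest start site of another gene, and grey the 6 at no promoter, and dotted lines mark 30 kb.

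The promoter peaks of Mrpl12, Mrps35 and Mrpl36 had no other gene starting within 1 kb. Mrpl12 encodes a large-subunit protein of the ribosomal stalk, the counterpart of a bacterial stalk protein. The peak, at 120345903 to 120346503 of chromosome 11, was centred in an intron. The start of a noncoding transcript of this gene lay 138 bp ahead of the centre, and the start of the protein-coding transcript 276 bp behind it. The nearest other start site was that of the long noncoding RNA gene Gm16755, at 3693 bp, and the nearest other protein-coding gene was Slc25a10, which encodes the mitochondrial dicarboxylate carrier, at 6951 bp. A further peak (120367767 to 120368367) lay 21726 bp downstream of Mrpl12, between genes, and was nearer to Slc25a10, at 9028 bp. This peak did not hold AAGGTCA.

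Mrps35 encodes a small-subunit protein with no bacterial counterpart. The peak, at 146991142 to 146991742 of chromosome 6, was centred in an intron, 156 bp into the gene, and the nearest other gene, Rep15, started 10383 bp away. Mrpl36 encodes a small protein of the large subunit with a bacterial counterpart. The peak, at 73468536 to 73469136 of chromosome 13, was centred in a coding exon, 379 bp into the gene. Ndufs6, which encodes a subunit of respiratory complex I, is transcribed in the opposite direction from a start site 2467 bp from that of Mrpl36, and the peak lay 2846 bp from it. The peak was thus at Mrpl36 and outside the promoter of Ndufs6 as defined here.

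The peaks at Mrpl47 and Mrps18b were at promoters shared with another gene, so that binding cannot be assigned to either gene by position. Mrpl47 encodes a large-subunit protein with a bacterial counterpart, and is transcribed in the opposite direction to Ndufb5, which encodes an accessory subunit of complex I. The closest start sites of this pair lay 20 bp from each other. The centre of the peak (chromosome 3, 32635920 to 32636520) lay 151 bp from the start of Mrpl47 and 171 bp from that of Ndufb5, and the peak covered both. Mrps18b encodes a small-subunit protein. Its relatives Mrps18a and Mrps18c had no peak within 30 kb. It is transcribed in the opposite direction to Ppp1r10, which encodes a regulatory subunit of protein phosphatase 1. The peak (chromosome 17, 36053363 to 36053963) was nearer to Ppp1r10, with 64 bp to a start site, than to Mrps18b, with 329 bp.

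**Figure D2:**
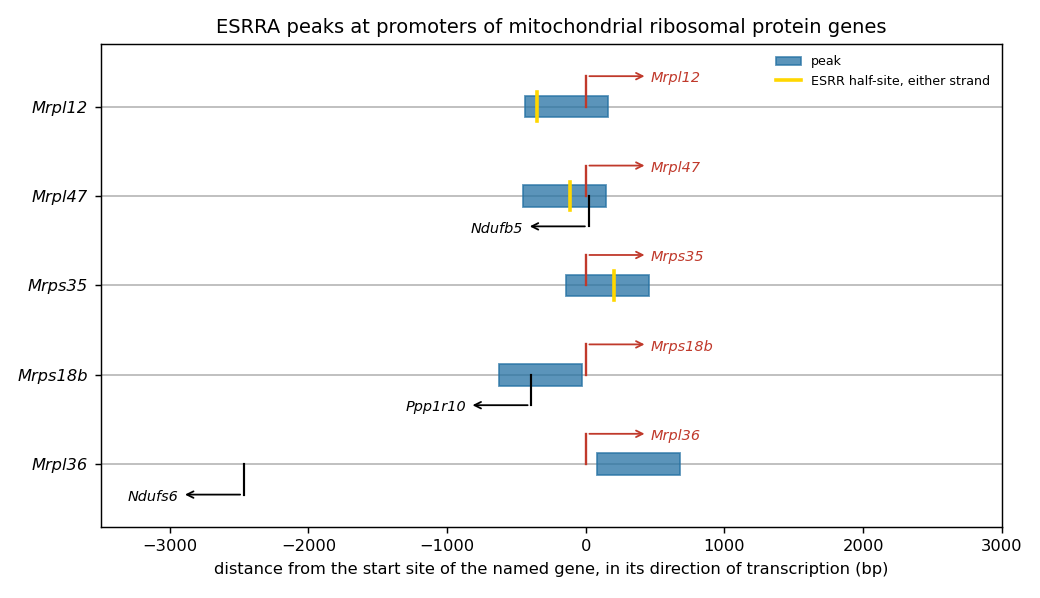
Position of the 5 promoter peaks (blue) relative to the nearest start site of the MRP gene (red arrow, at 0), in bp and in the direction of its transcription, with start sites of other protein-coding genes (black arrows) and the core half-site (gold). The peaks at Mrpl12, Mrpl47 and Mrps35 cover the start site, those at Mrps18b and Mrpl36 end beside it, and Ndufb5 and Ppp1r10 start within the peak.

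Mrps18b was the MRP gene with the most peaks, 3, each less than 30 kb from the next. A peak at chromosome 17, 36054953 to 36055553, lay 1919 bp upstream of Mrps18b, in an exon of Ppp1r10 and 419 bp from the start of the microRNA gene Mir1894. The third, at 36033607 to 36034207, lay 15604 bp from the start of a transcript of Mrps18b with a retained intron, and 16 and 111 bp from the start sites of Gm16279 and 2310061I04Rik. AAGGTCA was found in 0 of these 3 peaks. GC content was 72.7% in the last of them and 37.4% in that at Mir1894, which were the highest and the lowest among the 18 peaks. The median was 55.9% in the 18 peaks and 48.8% in all peaks.

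The other peaks at a neighbour's promoter included those near Mrpl15, Mrps17 and Mrpl51. For Mrpl15, a large-subunit gene, the peak (chromosome 1, 4797327 to 4797927) was 21807 bp upstream of Mrpl15 and 242 bp upstream of Lypla1, which encodes an acyl-protein thioesterase. For Mrps17, a small-subunit gene, the peak (chromosome 5, 130231038 to 130231638) was 9766 bp downstream of its start and in an intron of Gbas, 364 bp from its start. Gbas encodes a mitochondrial protein of the NIPSNAP family. For Mrpl51, which encodes a mitochondria-specific large-subunit protein, a pair of peaks (chromosome 6, 125113883 to 125114483 and 125114957 to 125115557) lay 27636 and 26562 bp upstream, at 751 and 54 bp from start sites of Gapdh, the glycolytic glyceraldehyde-3-phosphate dehydrogenase. In each of these cases the MRP gene was linked by distance alone.

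The full sequence TCAAGGTCA was found in 3 of the 18 peaks (16.7%, interval 5.84 to 39.2%), beside 14.3% of all peaks, and AAGGTCA in 10 (55.6%, interval 33.7 to 75.4%), beside 44.0%. The shares of all peaks include the 324 multi-copy peaks, whereas the 18 peaks were all single-copy. Of the 5 peaks at an MRP promoter 0 held TCAAGGTCA (interval 0 to 43.4%). The 3 peaks that did were those in an intron of Gbas, near Mrps17 (chr5:130231252-130231280, plus strand), at the start of Gapdh, near Mrpl51 (chr6:125115159-125115187, minus strand), and in an intron of Stx3, near Mrpl16 (chr19:11868655-11868683, minus strand). They are shown because they are the exact matches to the known site, with the match in capitals.
Gbas peak near Mrps17: cccgtggggcTCAAGGTCAccgtcctgcc
Gapdh peak near Mrpl51: caaggagaccTCAAGGTCAgcgctcggac
Stx3 peak near Mrpl16: gtaagcttgtTCAAGGTCAtaaaactgct

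These matches lay 72, 84 and 91 bp from the midpoint of their peak. Over the 13 AAGGTCA sites in the 10 peaks the distance to the midpoint ranged from 29 to 215 bp, with a median of 85 bp, and 4 sites were within 50 bp. Core sites in other contexts were found at Lypla1 (chr1:4797445-4797473, plus strand, and chr1:4797462-4797490, minus strand), in Fau (chr19:6059089-6059117, minus strand) and in Tmem88b (chr4:155158024-155158052, plus strand). A further 3 core sites, the most in any peak linked to an MRP gene, were in the peak in an intron of Gapdh near Mrpl51 (chr6:125113883-125114483). They are not shown. Those at Lypla1 were on opposite strands of the same peak.
Lypla1 peak near Mrpl15, first site: tgcagacttcTGAAGGTCAtgacattttg
Lypla1 peak near Mrpl15, second site: tggcaaacatTTAAGGTCAaaatgtcatg
Fau peak near Mrpl49: aggttaagtaGCAAGGTCAcgcccagagc
Tmem88b peak near Mrpl20: tttgtcctgtACAAGGTCAagaccttgga

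The 6 peaks at no promoter were near Mrpl49, Mrps24, Mrpl12, Mrpl16, Mrpl20 and Mrpl50. Mrpl49, which encodes a mitochondria-specific large-subunit protein, starts 135 bp from Fau, a gene for a ubiquitin-like protein fused to a cytosolic ribosomal protein. The peak (chromosome 19, 6058832 to 6059432) was in an intron of Fau, 1239 bp from its start and 1374 bp from that of Mrpl49. Mrps24 encodes a small-subunit protein, and its peak (chromosome 11, 5611407 to 5612007) lay in an intron of Mrps24, 3976 bp downstream of the start, with Urgcp as the next gene at 15148 bp. This was the only peak outside promoters with its midpoint in an MRP gene, and it held no sequence that matched TCAAGGTCA at more than 6 positions.

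Mrpl16 encodes a large-subunit protein with a bacterial counterpart. It had the nearest start site to its peak (chromosome 19, 11868460 to 11869060), at 23855 bp, but this peak lay in an intron of Stx3, a syntaxin of the apical membrane, whose start was 24623 bp away. Near Mrpl20, also a large-subunit gene with a bacterial counterpart, the peak (chromosome 4, 155157768 to 155158368) was 19577 bp upstream, in an untranslated exon of Tmem88b at 1915 bp from its start. Near Mrpl50, which encodes a mitochondria-specific large-subunit protein, the peak at no promoter was 13945 bp upstream of its start.

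The 63 MRP genes with no peak within 30 kb had their nearest peak between 32.7 kb, for Mrpl19, and 4242 kb, for Mrps14. In 10 of them it was within 100 kb. In order of distance these were Mrpl19, Mrps34, Mrps31, Mrpl52, Mrps28, Mrpl48, Mrps22, Mrpl54, Mrps12 and Mrpl39. It was between 100 and 500 kb in 28, between 500 and 1000 kb in 7 and farther in 18. Over all 76 genes the median distance was 243 kb (quartiles 83.9 and 814 kb), and over all protein-coding genes it was 448 kb (quartiles 139 and 1197 kb). The genes just inside the 30 kb limit were Mrpl51 (26.6 kb), Mrpl16 (23.9 kb) and Mrpl15 (21.8 kb), and those just outside it were Mrpl19 (32.7 kb), Mrps34 (45.5 kb) and Mrps31 (47.6 kb). At the 1 kb limit Mrpl36 (379 bp), Mrps18b (329 bp) and Mrps35 (156 bp) were the last inside, and Mrpl49 (1374 bp), Mrps24 (3976 bp) and Mrps17 (9766 bp) the first outside. No MRP gene thus had its nearest peak between 379 and 1374 bp.

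**Figure D3:**
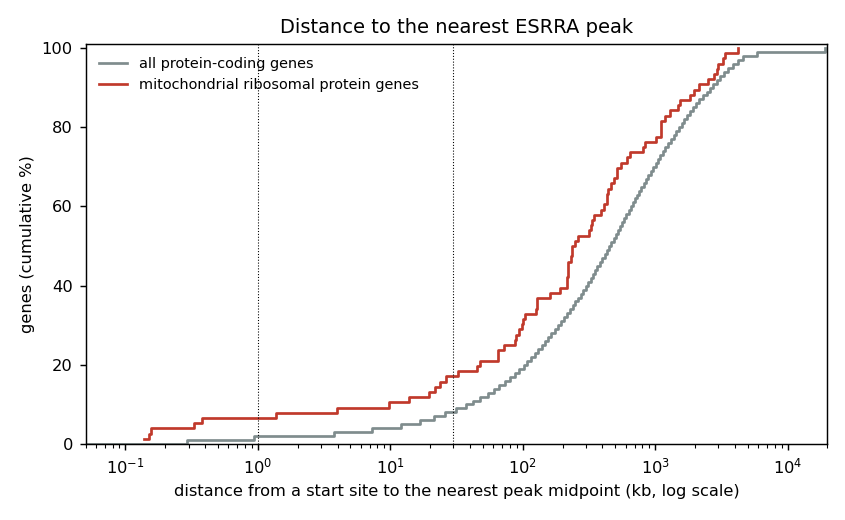
Cumulative share of genes (%) by the distance from a start site to the nearest peak midpoint (kb, log scale), for the 76 MRP genes (red) and all 22367 protein-coding genes (grey, drawn at each whole percent), with dotted lines at 1 and 30 kb. The red line reaches 6.58% at 1 kb and 17.1% at 30 kb, where the shares of all genes are 2.08% and 8.75%.

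The full site was also counted around the start sites of the MRP genes, whether or not they had a peak. Within 1 kb of a start site, 8 MRP genes held TCAAGGTCA (10.5%, interval 5.43 to 19.4%), beside 7.99% of all protein-coding genes, and 39 held AAGGTCA (51.3%, interval 40.3 to 62.2%), beside 43.9%. For TNAAGGTCA, where N is any base, the order of the shares turned, to 11 MRP genes (14.5%, interval 8.28 to 24.1%) and 17.7% of all genes. The window covered every start site, of which an MRP gene had a median of 3 and any protein-coding gene 2. The 8 genes with TCAAGGTCA were Mrpl20, Mrpl35, Mrpl4, Mrpl46, Mrpl48, Mrps10, Mrps11 and Mrps23, and 0 of these had a peak within 1 kb. Mrpl20 had a peak 19.6 kb away, at Tmem88b, and the nearest peak of the other 7 was between 72.0 kb (Mrpl48) and 2974 kb (Mrps10). Of the 5 genes with a promoter peak, 0 held TCAAGGTCA and 4 held AAGGTCA in this window. The 7 sites of these 8 genes are shown, since they match the known site exactly without a peak in these cells. Copy number was not counted at these sites. Mrpl46 and Mrps11, which encode a large- and a small-subunit protein, start 412 bp apart on opposite strands and share 1 of them (chr7:85927585-85927613, plus strand). The others lie at chr4:155178342-155178370 (minus strand), chr6:71773412-71773440 (plus), chr9:20806273-20806301 (plus), chr7:107722329-107722357 (minus), chr17:47508495-47508523 (plus) and chr11:88018440-88018468 (plus).
Mrpl46 and Mrps11: aaacgtttgcTCAAGGTCAcacgaagtac
Mrpl20: gttcttactgTCAAGGTCAgaaatgacat
Mrpl35: tatatgactcTCAAGGTCAaagttgagag
Mrpl4: gactctgaacTCAAGGTCAtccttggcta
Mrpl48: ccacccacatTCAAGGTCAgtctttcctg
Mrps10: ttggctgcttTCAAGGTCAcacttttcaa
Mrps23: ggcactaaatTCAAGGTCAtccttggcca

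The distance of these sites from the nearest start site was smallest for Mrps10, 152 bp upstream, and largest for Mrpl4, 894 bp upstream. The shared site was 353 bp downstream of a start of Mrpl46 and 406 bp upstream of one of Mrps11, in an intron of Mrpl46. The site of Mrpl4 was between genes, and the remaining 5 were in introns.

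A feature shared by many MRP genes was a start site close to that of another gene. The outermost start site was within 1 kb of a protein-coding start on the opposite strand in 28 of the 76 (36.8%, interval 26.9 to 48.1%), beside 10.8% of all protein-coding genes. Mrpl46 and Mrps11 were partners of each other. A peak within 1 kb was found in 2 of the 28 genes with such a partner (7.14%, interval 1.98 to 22.6%) and in 3 of the 48 without one (6.25%, interval 2.15 to 16.8%). Of all 2426 protein-coding genes with an opposite-strand start 75 had one (3.09%).

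Binding sequences of other factors were counted in the 300 bp from 250 bp before to 50 bp after each start site, on both strands. The ETS sequence CCGGAAGT was present in 14 MRP genes (18.4%) and in 6.37% of all protein-coding genes, and the NRF1 sequence CATGCGCA in 7 (9.21%) and 3.36%. The YY1 sequence ATGGCGGC was present in 20 (26.3%) and in 4.81% of all genes, and in 18 of these 20 its first 3 bases were the annotated start codon of the MRP gene. AAGGTCA was present in this shorter window in 6 MRP genes (7.89%) and in 9.37% of all protein-coding genes. Of the 5 genes with a promoter peak, Mrps35 held both the ETS and the YY1 sequence and Mrps18b the NRF1 sequence. An MRP gene had a median of 3 start sites and any protein-coding gene 2, and with only the outermost start site of each gene the shares were lower in both sets, at 13.2% and 4.69% for ETS, 7.89% and 2.52% for NRF1, and 17.1% and 2.73% for YY1. For AAGGTCA the order of the shares turned, to 5.26% of MRP genes (4 genes, interval 2.07 to 12.8%) and 3.92% of all genes. GC content of the window at the outermost start site had a median of 57.7% in MRP genes and 55.0% in all genes.

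**Figure D4:**
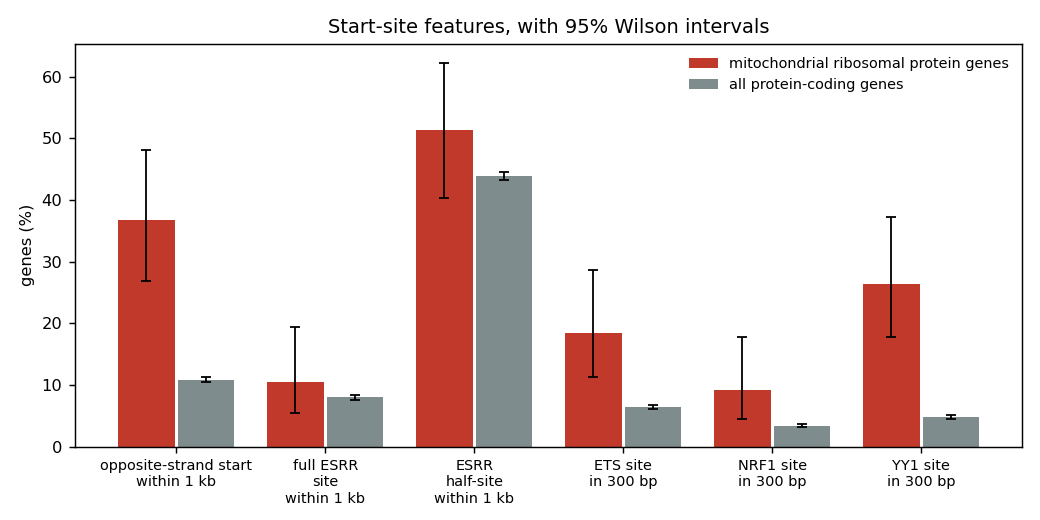
Share (%) of the 76 MRP genes (red) and of all 22367 protein-coding genes (grey) with an opposite-strand protein-coding start within 1 kb, with the full ESRR site or its core half-site within 1 kb of a start site, and with ETS, NRF1 and YY1 sequences in 300 bp at a start site, with 95% Wilson intervals. The full ESRR site was in 10.5% and 7.99%, and an opposite-strand start was near 36.8% and 10.8%.

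The other genes of mitochondrial translation gave shares close to those of the MRP genes. Of 65 such genes found in the annotation, 12 had a peak within 30 kb (18.5%, interval 10.9 to 29.6%) and 4 within 1 kb (6.15%, interval 2.42 to 14.8%). The 4 were Gfm1, a mitochondrial elongation factor, with a peak 160 bp from its start, Mrm1, a methyltransferase of mitochondrial ribosomal RNA, at 169 bp, Oxa1l, which inserts proteins made by the mitoribosome into the inner membrane, at 193 bp, and Rmnd1, required for mitochondrial translation, at 143 bp. By group, a peak within 30 kb was found for 0 of 7 mitoribosome subunits with other symbols, such as Dap3 and Ptcd3, for 2 of 19 mitochondrial aminoacyl-tRNA synthetases (Iars2 and Pars2, neither at the promoter), for 5 of 16 translation factors and for 5 of 23 factors of mitoribosome assembly and mitochondrial RNA. The translation factors were Gfm1, Gatc, Gfm2, Mtfmt and Tufm, and those besides Gfm1 had the peak 7572 to 13023 bp away.

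For comparison, complex I subunits had a peak within 30 kb in 16 of 36 genes (44.4%, interval 29.5 to 60.4%) and within 1 kb in 14 (38.9%, interval 24.8 to 55.1%). Cytosolic ribosomal proteins had one in 5 of 80 genes (6.25%, interval 2.70 to 13.8%) and in 1 (1.25%), Rpl8. The difference between these lists was not tested. The peak at Mrpl47 is also that of Ndufb5, and the peak at Mrpl36 is also the nearest one of Ndufs6, so that 2 of the 16 complex I genes were linked through a peak counted above.

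**Figure D5:**
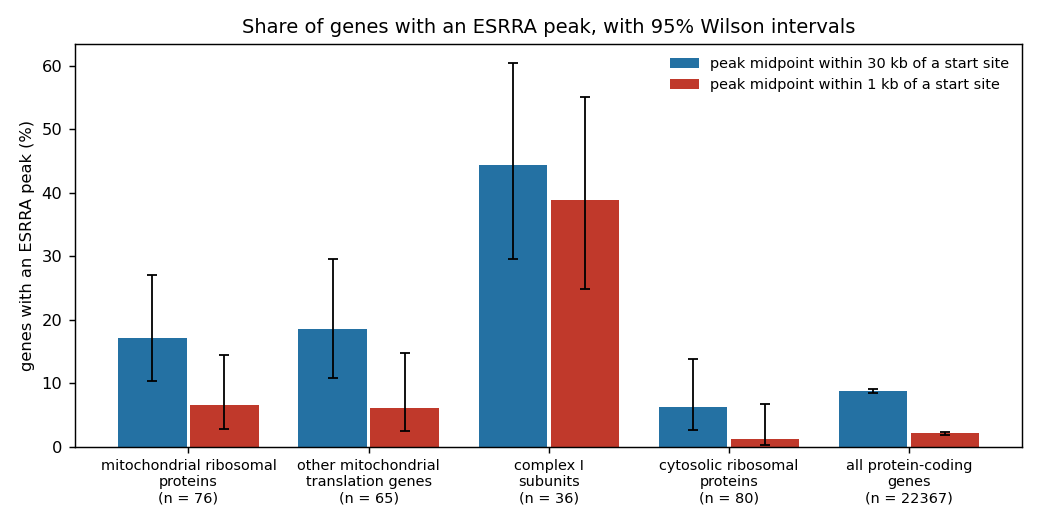
Share of genes (%) with the midpoint of an ESRRA peak within 30 kb (blue) and within 1 kb (red) of a start site, for 4 lists and all protein-coding genes, with 95% Wilson intervals. At 1 kb the MRP genes (6.58%) and the other mitochondrial translation genes (6.15%) lie between complex I subunits (38.9%) and cytosolic ribosomal proteins (1.25%).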

How the data were processed

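Following the methods of the study, paired-end reads were mapped by the authors to mm9 (Bowtie2 2.2.6), the reads of both ChIP libraries were merged (SAMtools 0.1.19), and MACS2 was run on the merged file at a p-value of 1e-05. The deposited values are the positions of the peaks in base pairs, start and end, with no signal. How all peaks came to have 1 width is not given in the sources used here. The peaks in the study's supplementary list differ in width from these, and only the deposited list was used. Replicates could not be compared after pooling, and the study's methods give 1 range of sequencing depth for its ChIP-seq libraries, but the peak list holds no read count for any sample.

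Sample titles gave the groups, ChIP with anti-ESRRA or input. Coordinates are printed counted from 1, on mouse NCBI build 37 (mm9) with GENCODE M1, both of which match the build of the peaks. Distances were taken from the peak midpoint to every transcript start site on the 19 autosomes, X and Y. Sequences were read from this genome and matched exactly on both strands. The copy number of each 24-base word was counted in the whole genome. Wilson intervals are at the 95% level. No test was run, since the list has no replicates, and shares are given beside those of all protein-coding genes or all peaks.

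Genes named are all MRP genes with a peak within 30 kb, the genes nearest to those peaks or starting within 1 kb of them, the genes next to each limit, and other mitochondrial translation genes with a promoter peak. Partners on the opposite strand, the genes without a peak and the translation factors and synthetases farther away were named after their values were seen. The neighbour of 1 linked gene is not reported here. The genes and lists were chosen with earlier results of these data known, and the ETS, NRF1 and YY1 sequences and the opposite-strand starts after the peaks were seen. Of 69 other translation genes listed, 65 were found by symbol in the annotation. The functions were tested on simulated data with planted peaks and sites (Python 3.11.15, numpy 2.4.6, pandas 2.3.3, scipy 1.17.1).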

Additional observations from a re-analysis of the deposited data

How the results depend on the processing

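Of 39 alternative counts, 29 stayed within 1.5 times the main value. The number of MRP genes linked to a peak, 13 within 30 kb, was 8 within 10 kb and 23 within 100 kb, and the number of linked peaks, 18, was 9 and 42. Genes with a peak at their own promoter were 5 at limits of 0.5 and 1 kb, 6 at 2 kb and 7 at 5 kb, and 3 where the peak had to cover the start site, which left out Mrps18b and Mrpl36. Shares of all protein-coding genes with a peak were counted at 30 and 1 kb only, so counts at other limits do not by themselves compare MRP genes with others. The lower quartile of the distance to the nearest peak was 83.9 kb for MRP genes and 139 kb for all protein-coding genes, on either side of 100 kb. The plot of the cumulative share of genes by this distance shows both sets, but not the covering rule. Peaks at an MRP gene's own promoter, 5, were 8 at a limit of 5 kb. Peaks with TCAAGGTCA, 3, were 5 with TNAAGGTCA and 10 with AAGGTCA, and genes with TCAAGGTCA within 1 kb of a start site, 8, were 39 with AAGGTCA and 5 within 0.5 kb. These follow from the wider or narrower window or the shorter sequence. Leaving out multi-copy peaks could not change the MRP counts or the distances of the linked genes, since all 18 linked peaks were single-copy. These values, fixed in advance, are included in the 29 counts above and the 33 distances below, and show nothing about stability. The count of other translation genes with a peak within 30 kb, 12, could have changed and did not. The shares of all protein-coding genes were not recomputed without multi-copy peaks. Of 39 alternative distances of the 13 linked genes 33 were identical, and that of Mrpl12 was 276 bp in place of 138 bp with protein-coding transcripts only. The use of protein-coding transcripts only and the count of other translation genes without multi-copy peaks were added after seeing the data. A stricter p-value needs a score per peak, and leaving out a ChIP replicate needs peaks per replicate, so neither was run. No paired analysis was possible because the peaks were called on pooled reads, with no value per library. With no read count per sample or peak in the list, weaker binding at genes without a peak could not be assessed.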
